A study of Mus musculus with 69 samples.

Results

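Gabra3, Abat, Gria1, Gria3 and Gria4 are genes of GABA and glutamate signalling, and their RNA was followed in cultured vascular cells of the mouse. They are 5 of the 56953 genes in the count tables. They were chosen by earlier results of the same data, in which Gabra3 was higher with high glucose and free fatty acids (HG + FFA) in vascular smooth muscle cells (VSMC), Gria4 was higher in endothelial cells (EC) and Abat was lower. The difference between HG + FFA and Control selected these genes and is therefore described here without a test. The main tests compare libraries outside this difference, those in which HG + FFA was added to angiotensin II and a catecholamine, which came from the same animals. The other tests share the Control or the HG + FFA libraries with the difference that chose the genes.

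GABA and glutamate are the main inhibitory and excitatory transmitters of the brain. GABA opens GABA-A receptors, chloride channels built from alpha, beta and further subunits, and activates the G protein-coupled GABA-B receptors. GABA transaminase, a mitochondrial enzyme encoded by Abat, breaks GABA down and passes its nitrogen to glutamate. Gabra3 encodes the alpha-3 subunit of the GABA-A receptor. Gria1, Gria3 and Gria4 encode subunits of the AMPA receptor, the cation channel behind fast excitatory transmission, and the remaining member of this family, Gria2, encodes the subunit that keeps calcium out of the channel. Transcripts of both receptor families are also found outside the nervous system.

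WT VSMC and KO VSMC had been cultured from the aorta (thoracic and abdominal) of male C57BL/6 mice. EC, all labelled WT, were primary cells from the heart of male mice, kept after depletion of CD45+ cells and selection of CD31+ cells. In KO VSMC (label EGFR-KOsmc) a floxed Egfr gene had been inactivated by SM22-driven Cre, a promoter of smooth muscle cells, so that Egfr remained intact wherever this promoter had not been active. All cells were synchronized in serum-free medium and then kept for 24 h without stressors (Control), with 20 mM glucose and 100 µM free fatty acids (HG + FFA, where the labels give this total and the study's methods give it for each of oleate and palmitate), with 30 nM angiotensin II and 300 nM of a catecholamine (AII + NA), or with ALL stressors. The labels name the catecholamine as epinephrine and the study's methods name norepinephrine, and the bovine serum albumin that carried the fatty acids was present in each condition. Cells of a single animal and passage that were treated at the same time form a set. Each condition had n = 4 sets in WT VSMC (sets 1 to 4) and in KO VSMC (sets 5 to 8), except ALL in KO VSMC with n = 3. In EC (sets 9 to 18), Control and AII + NA had n = 9, and HG + FFA and ALL had n = 10. The libraries of these cells missing from ALL in set 5, Control in set 10 and AII + NA in set 15 were not analysed here. Sets 17 and 18 came from the same animal, so that EC stand for 9 animals, and EC sets 9 and 10 came from the animals of WT VSMC sets 1 and 2. Ages are not given in the labels.

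The 69 libraries held 23626664 to 37801299 counts in WT VSMC, 23238979 to 35120866 in KO VSMC and 17166133 to 43240489 in EC. Levels are given as FPM, the counts of a gene scaled to a common library size with TMM normalization, or per kilobase of exons (FPKM) where genes are compared with each other. A total of 3 counts, taken as the floor of detection, corresponded to 0.0700 to 0.185 FPM per library and covers counting error only. A gene passed at an FDR under 0.05 over all genes tested in edgeR's quasi-likelihood test with the set as a block. Egfr, the targeted gene, stood at 226 to 500 FPM in WT VSMC, at 33.7 to 40.2 FPM in set 5 of KO VSMC and at 0.534 to 1.99 FPM in sets 6 to 8. In EC it stood at 2.16 to 12.2 FPM in sets 15 and 16 and at 10.2 to 168 FPM in the other sets. Sets 15 and 16 are labelled WT, but their animals also gave KO VSMC sets 7 and 6.

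Cell type markers did not always follow the labels. In EC sets 9, 11 and 13 the 10 endothelial markers summed to 55.8 to 149 FPM. The other 7 sets held 503 to 5285 FPM of them. The 8 fibroblast markers reached 5030 to 23655 FPM in sets 9, 11 and 13 and 826 to 14646 FPM in the other sets. Among the latter, set 17 held 8396 to 14646 FPM of fibroblast markers, beside 503 to 669 FPM of endothelial markers. Fibroblast markers also exceeded endothelial markers in set 10 (4174 to 5720 against 1913 to 2131 FPM) and set 16 (5095 to 6701 against 783 to 852 FPM). The 8 smooth muscle markers summed to 796 to 3889 FPM in sets 9, 11 and 13 and to 205 to 993 FPM in the other EC sets, against 356 to 2086 FPM in WT VSMC. The changes of the members that passed in EC are also given without sets 9, 11 and 13, as are other EC values that moved by much. In WT VSMC Acta2 reached 222 to 1846 FPM, whereas Myh11 stayed at 2.99 to 13.5 FPM and Tagln, the SM22 gene, at 1.66 to 6.56 FPM. KO VSMC set 5 stood apart with 243 FPM of Myh11 under Control, against 3.02 to 10.0 FPM in sets 6 to 8. The 8 neuron markers summed to 1.12 to 8.35 FPM in WT VSMC, 7.12 to 32.7 FPM in KO VSMC and 0 to 22.8 FPM in EC, with Gap43 reaching 32.1 FPM in KO VSMC and Stmn2 19.8 FPM in EC, while Rbfox3 and Snap25 did not reach 1 FPM in any library. In these bulk samples, fewer cells of a type and less RNA per cell cannot be told apart.

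On the GRCm39 genome Gabra3 (ENSMUSG00000031343) spans 71476275 to 71700723 of chromosome X on the minus strand, and Gria3 (ENSMUSG00000001986) spans 40489476 to 40767490 of the same chromosome on the plus strand. Gria4 (ENSMUSG00000025892) lies on chromosome 9, 4417604 to 4796326, minus strand. Abat (ENSMUSG00000057880) lies on chromosome 16, 8331233 to 8439996, plus strand, and Gria1 (ENSMUSG00000020524) on chromosome 11, 56902153 to 57221080, plus strand. All 5 are protein-coding genes, and the counts are reads over their exons. Other genes overlap 2.66% of the exon bases of Gria4 and 0.67% of those of Gria3. Gabre (ENSMUSG00000031340), the epsilon subunit of the GABA-A receptor, lies beside Gabra3 on the same strand of chromosome X, 71299605 to 71318409, with 157865 bases and 1 further protein-coding gene between them. Gabrq, the theta subunit on the other side of Gabra3, lies at 71868784 to 71886208 on the plus strand.

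The bases before the start sites of Gabra3, Gria4 and Gabre are shown because these were the receptor subunits that rose with HG + FFA in the tests below. The 250 bases up to the start come from RefSeq (GRCm38.p6), at chrX:72656920-72657169 for the first of 2 listed starts of Gabra3, chr9:4796235-4796484 for Gria4 and chrX:72274722-72274971 for Gabre, each read along its minus strand. Abat, Gria1 and Gria3 are named only. Capitals mark the motif TATAAA, the CCAAT box and the GC box GGGCGG on either strand.
Gabra3: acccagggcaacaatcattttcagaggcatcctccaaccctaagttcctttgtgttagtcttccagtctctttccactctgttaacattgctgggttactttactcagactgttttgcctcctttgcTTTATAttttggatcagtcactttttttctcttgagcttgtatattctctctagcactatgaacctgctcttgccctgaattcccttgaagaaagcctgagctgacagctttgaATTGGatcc
Gria4: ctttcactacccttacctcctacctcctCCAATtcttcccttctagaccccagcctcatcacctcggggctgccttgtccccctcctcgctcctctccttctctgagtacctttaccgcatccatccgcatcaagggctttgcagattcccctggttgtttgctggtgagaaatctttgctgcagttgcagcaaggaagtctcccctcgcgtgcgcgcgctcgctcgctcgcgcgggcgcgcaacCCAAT
Gabre: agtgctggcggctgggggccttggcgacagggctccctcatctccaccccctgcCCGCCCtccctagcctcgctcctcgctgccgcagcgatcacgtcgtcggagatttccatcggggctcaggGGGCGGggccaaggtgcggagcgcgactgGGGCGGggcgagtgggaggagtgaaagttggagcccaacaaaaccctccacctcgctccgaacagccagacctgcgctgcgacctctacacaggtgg
The 3 sequences differ in base composition. The Gabra3 window had 42.4% G and C and no CG dinucleotide, which holds for 7.87% of 32851 listed promoter windows of this length. The Gria4 window had 58.8% G and C and 16 CG, and the Gabre window 68.8% and 21 CG, against medians of 52.4% and 6 CG. TATAAA was found on the opposite strand of the Gabra3 window, 123 to 118 bases before the start, and is present in 12.4% of all windows. CCAAT was found in Gabra3 (opposite strand, 9 to 5 bases before the start) and at 2 places in Gria4 (222 to 218 and 5 to 1 bases before), and is present in 33.8% of all windows. GGGCGG was found at 3 places in Gabre, against 32.7% of windows with at least 1. The motif AGGTCA, present in 14% of windows, the E-box CACGTG (6.02%) and the motif TGACGTCA (1.55%) were found in none of the 3, and no searched motif overlapped another in these windows.

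Without stressors, WT VSMC held RNA of few subunits of these receptors. Of the 19 GABA-A receptor subunit genes, only Gabra3 and Gabre reached a mean of 3 FPM in Control WT VSMC, with 3.89 ± 2.16 FPKM (SD, n = 4) for Gabra3 and 2.94 ± 1.15 FPKM for Gabre. Beta subunits form the GABA binding site together with the alpha subunits, and of these Gabrb1 did not exceed 5.52 FPM and Gabrb2 did not exceed 0.318 FPM in any library. The gamma subunit gene Gabrg1 stayed at or below 0.0765 FPM. The GABA-B receptor was represented by Gabbr1 with 4.93 ± 1.98 FPKM (SD, n = 4), whereas its partner Gabbr2 did not exceed 0.468 FPM in any library. Abat was present with 3.99 ± 1.60 FPKM, while the GABA-synthesizing enzymes Gad1 and Gad2 did not exceed 0.774 and 1.80 FPM.

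Of the AMPA receptor genes, Gria3 (5.58 ± 0.786 FPKM, SD, n = 4) and Gria4 (2.68 ± 0.638 FPKM) were present in Control WT VSMC. Gria2 did not exceed 0.0884 FPM in any of the 69 libraries. Gria1 was at 0 to 0.24 FPM in all VSMC libraries, which amounts to at most 8 counts. Cacng7, a TARP auxiliary protein that accompanies AMPA receptors, reached 26.9 ± 1.12 FPKM (SD, n = 4).

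**Figure D1:**
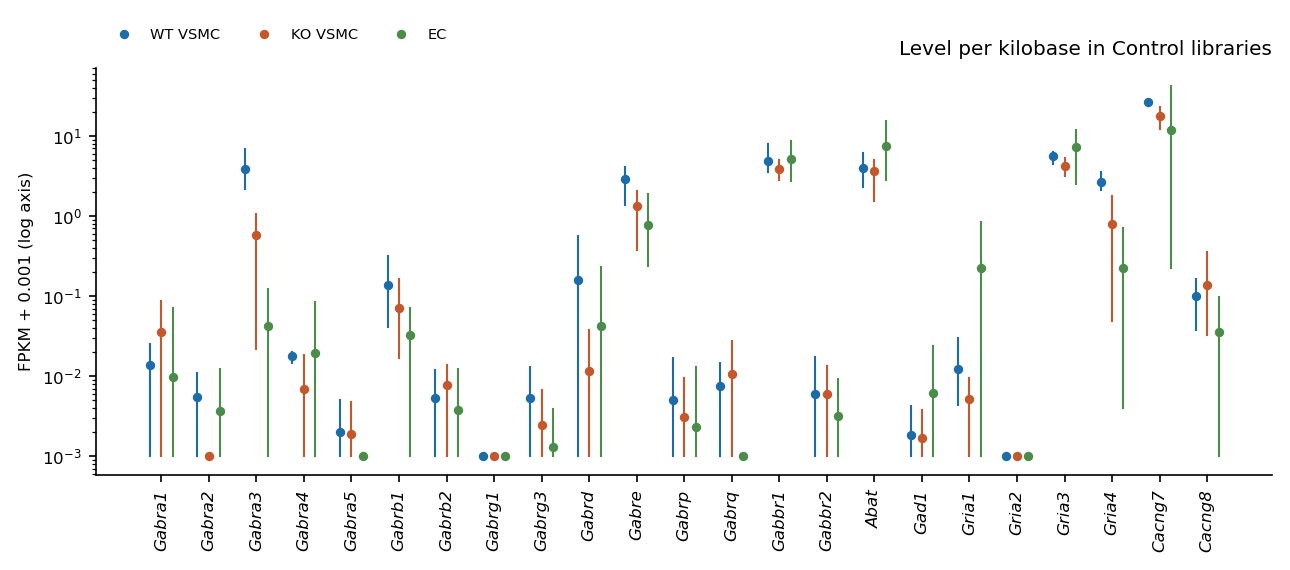
Level per kilobase of exons (FPKM + 0.001, log axis) of GABA and AMPA receptor genes in Control libraries of WT VSMC (n = 4), KO VSMC (n = 4) and EC (n = 9). Points are means and lines run from the lowest to the highest library. Gabra3 and Gabre stand above the other GABA-A subunits shown in WT VSMC, and Gria2 and Gabrg1 lie at the bottom of the axis in all cells.

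Gabra3 was higher with HG + FFA in every set of WT VSMC, with and without AII + NA. Under Control it stood at 18.4, 15.1, 25.8 and 48.1 FPM in sets 1 to 4, and under HG + FFA at 63.8, 38.6, 63.4 and 102 FPM. Each set was thus higher under HG + FFA, although the ranges of both conditions overlap, since Control in set 4 exceeded HG + FFA in set 2. The fitted difference was 1.37 on the log2 scale (SE 0.128), or 2.58-fold.

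Under AII + NA the 4 sets of WT VSMC held 17.9, 17.9, 21.3 and 28.8 FPM of Gabra3, and under ALL 56.7, 39.1, 53.2 and 92.6 FPM. In the test of this contrast 1.36% of the 16905 genes passed. Gabra3 rose 2.71-fold with HG + FFA on top of AII + NA (log2FC 1.44, SE 0.129, FDR 9.09e-05, higher in 4 of 4 sets).

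Gabra3 rose in KO VSMC as well, where its level was lower. Gabra3 was at 3.13, 0.144, 5.64 and 7.27 FPM in sets 5 to 8 under Control and at 16.2, 0.521, 15.6 and 18 FPM under HG + FFA, a difference of 1.70 on the log2 scale (SE 0.217). Set 6 stood far below the other sets in each condition, with 5 counts under Control. Under AII + NA the sets held 3.28, 0.209, 6.77 and 7.05 FPM, and under ALL sets 6 to 8 held 0.956, 14 and 19.9 FPM. Gabra3 rose 2.93-fold (log2FC 1.55, SE 0.24, FDR 0.00864, 3 of 3 sets), where 0.399% of 17538 genes passed. The fit takes set 5 without an ALL library, and the call was lost without set 6, 7 or 8 (FDR 0.0725 to 0.110).

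**Figure D2:**
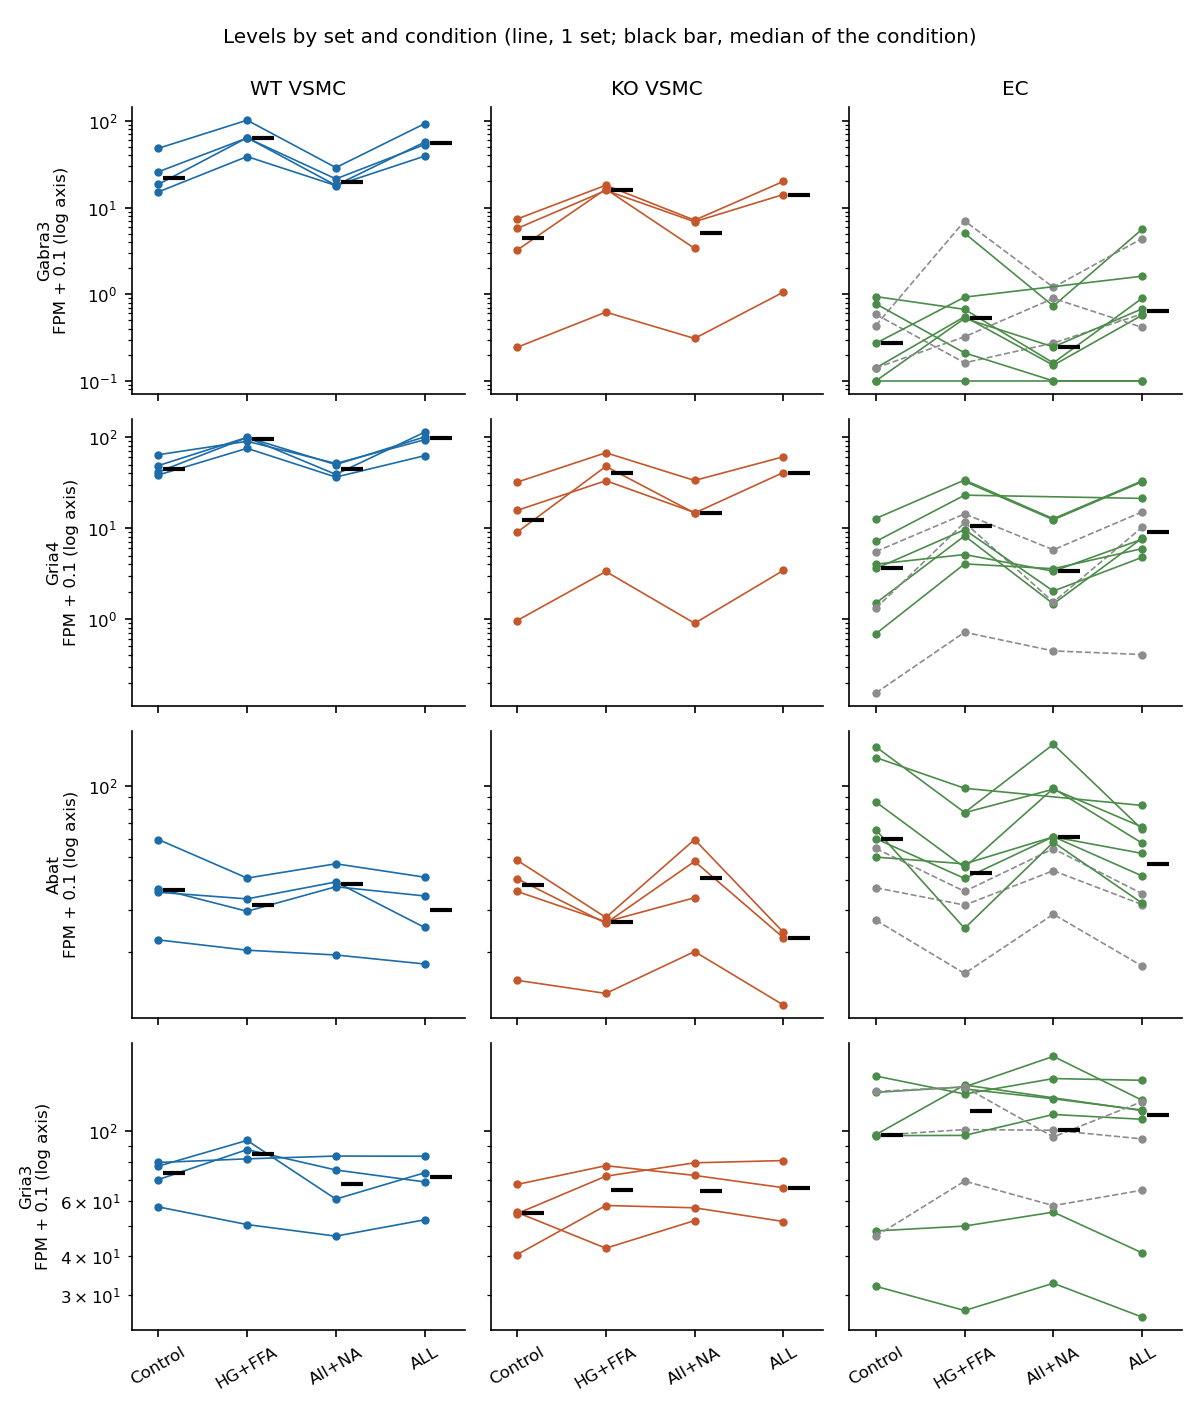
FPM + 0.1 (log axes) of Gabra3, Gria4, Abat and Gria3 in the 4 conditions, for WT VSMC, KO VSMC and EC. Each line joins the libraries of 1 set, dashed grey lines are EC sets 9, 11 and 13, and black bars are medians of a condition. In VSMC the lines of Gabra3 and Gria4 rise to HG + FFA, lie near the Control level at AII + NA and rise again to ALL, and those of Gria3 show no such course.

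EC held little Gabra3. It lay between 0 and 0.838 FPM under Control (median 0.172), between 0 and 6.90 FPM under HG + FFA (median 0.438), between 0 and 1.10 FPM under AII + NA (median 0.147) and between 0 and 5.51 FPM under ALL (median 0.535). Sets 10 and 13 were the highest under HG + FFA and ALL, with 90 to 209 counts, and set 14 had no count in any of its 4 libraries. With HG + FFA on top of AII + NA the difference in EC was 1.72 on the log2 scale (SE 0.802, FDR 0.289, higher in 6 of 9 sets), in a contrast in which 3.22% of 17148 genes passed. Without EC sets 9, 11 and 13 it was 3.05 (SE 1.01, FDR 0.121). Without a filter on low counts it passed (FDR 0.0469), where the FDR ranged from 0.0469 to 1 over the alternatives.

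Gria4 was the member that rose in all of the 3 cell types when HG + FFA was added to AII + NA. In WT VSMC it held 41.6, 48.8, 38.4 and 64.2 FPM in sets 1 to 4 under Control and 99.4, 99.8, 75.6 and 90.3 FPM under HG + FFA (log2FC 0.93, SE 0.121). Under AII + NA the sets were at 39.0, 49.97, 36.4 and 51.4 FPM and under ALL at 114, 101, 62.7 and 93.9 FPM. The rise was 2.08-fold (log2FC 1.06, SE 0.122, FDR 0.000587, 4 of 4 sets).

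KO VSMC held less Gria4, which also rose. Under Control it was at 15.6, 0.864, 8.94 and 32.0 FPM in sets 5 to 8 and under HG + FFA at 33.2, 3.24, 47.8 and 67.5 FPM (log2FC 1.55, SE 0.201). Under AII + NA the sets held 14.8, 0.799, 14.6 and 33.4 FPM, and under ALL sets 6 to 8 held 3.33, 40.9 and 61.0 FPM. Set 6 was again the lowest. The rise with HG + FFA on top of AII + NA was 2.54-fold (log2FC 1.35, SE 0.22, FDR 0.0115, 3 of 3 sets), and it did not pass without set 6 or 7 (FDR 0.169 and 0.135).

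In EC, Gria4 lay between 0.0539 and 12.7 FPM under Control (median 3.51) and between 0.617 and 33.8 FPM under HG + FFA (median 10.5). All 9 sets with both libraries were higher under HG + FFA, and the fitted difference was 1.75 (SE 0.245). Under AII + NA the range was 0.346 to 12.6 FPM (median 3.26) and under ALL 0.308 to 33.1 FPM (median 8.90). Gria4 rose 2.74-fold (log2FC 1.46, SE 0.244, FDR 0.000313), with 8 of 9 sets higher. Set 11, at 6 and 5 counts, was the exception with a log2 ratio of -0.13. The rise was 1.36 (SE 0.272, FDR 0.00580) without EC sets 9, 11 and 13 and 1.46 (SE 0.298, FDR 0.00697) without EC sets 15 and 16.

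Gria3, the AMPA receptor subunit with the highest FPKM in Control of each cell type, did not pass in any of these contrasts. Under Control it held 79.4, 70.0, 77.3 and 57.3 FPM in WT VSMC sets 1 to 4 and 55.0, 67.6, 40.3 and 54.5 FPM in KO VSMC sets 5 to 8, and in EC it lay between 31.9 and 150 FPM (median 96.9). The difference with HG + FFA on top of AII + NA was 0.07 in WT VSMC (SE 0.0972, FDR 0.814), -0.06 in KO VSMC (SE 0.139, FDR 0.923) and -0.12 in EC (SE 0.0832, FDR 0.523), or -0.23 (FDR 0.201) without EC sets 9, 11 and 13. The groups overlapped throughout, and no neighbours in the order of its 12 group means differed by more than the larger SD of the pair.

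Gria1 had enough counts for a test of the treatments only in EC, where it was uneven among sets. Sets 14, 16 and 17 held 1.27 to 6.83 FPM in all of their libraries and set 15 held 0.352 to 1.07 FPM, whereas the other 6 sets did not exceed 0.960 FPM. Among them was set 18, with at most 0.169 FPM, from the same animal as set 17. Its difference with HG + FFA on top of AII + NA was -1.23 (SE 0.580, FDR 0.298), with 5 of 9 sets lower and 2 higher. HG + FFA against Control gave -1.12 (SE 0.570), with 6 of 9 sets lower.

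Abat ran in the opposite direction to Gabra3 and Gria4. In EC it lay between 27.0 and 146 FPM under Control (median 59.8) and between 16.1 and 97.8 FPM under HG + FFA (median 42.9), and every one of the 9 paired sets was lower (log2FC -0.63, SE 0.0946). Under AII + NA it lay between 28.7 and 150 FPM (median 60.9) and under ALL between 17.3 and 82.7 FPM (median 46.8). Although the ranges overlap, each of 9 sets was lower under ALL than under AII + NA, and Abat fell 1.60-fold (log2FC -0.68, SE 0.0942, FDR 2.08e-05). The fall was -0.69 on the log2 scale without EC sets 9, 11 and 13 (FDR 0.00242) and -0.73 without EC sets 15 and 16 (FDR 3.68e-05).

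In KO VSMC, Abat was at 35.8, 40.5, 48.5 and 15 FPM in sets 5 to 8 under Control and at 26.6, 26.2, 27.8 and 13.2 FPM under HG + FFA (log2FC -0.52, SE 0.125). Under AII + NA it was at 33.7, 48.0, 59.3 and 19.9 FPM, and under ALL sets 6 to 8 were at 22.8, 24.0 and 11.8 FPM. Abat fell 1.97-fold with HG + FFA on top of AII + NA (log2FC -0.98, SE 0.141, FDR 0.00442, lower in 3 of 3 sets). Set 8 was the lowest in each condition, and without set 6 or 7 the fall did not pass (FDR 0.169 and 0.241).

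In WT VSMC, Abat was at 59.3, 35.5, 36.8 and 22.3 FPM in sets 1 to 4 under Control and at 40.8, 33.3, 29.5 and 20.2 FPM under HG + FFA (log2FC -0.28, SE 0.0990). Under AII + NA it was at 46.9, 39.3, 37.5 and 19.2 FPM and under ALL at 41.1, 25.2, 34.2 and 17.6 FPM. Every set was lower under ALL, but the groups overlap and the difference did not pass (log2FC -0.28, SE 0.0999, FDR 0.201). The difference between WT VSMC and KO VSMC in this change of Abat was 0.70 on the log2 scale (SE 0.174, FDR 0.274), and over its alternatives the FDR ranged from 0.0118, without a filter on low counts, to 1.

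**Figure D3:**
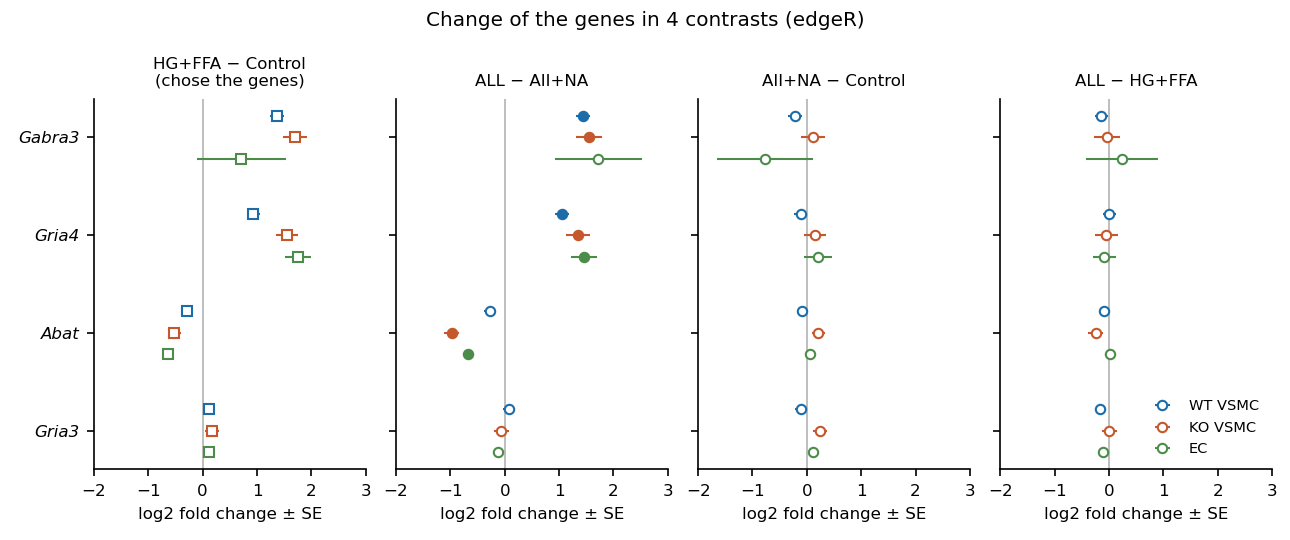
Log2 fold change ± SE (edgeR, set as a block) of Gabra3, Gria4, Abat and Gria3 in 4 contrasts, for WT VSMC, KO VSMC and EC. Filled circles passed an FDR under 0.05, open circles did not, and squares mark the contrast that chose the genes and has no test. Where HG + FFA was added, Gabra3 and Gria4 lie to the right and Abat to the left of 0, and no circle is filled where AII + NA was added.

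AII + NA alone left the 5 genes without a change that passed. Against Control, the members tested differed by -0.21 to -0.09 on the log2 scale in WT VSMC and by 0.12 to 0.25 in KO VSMC, and by -0.76 (Gabra3) to 0.21 (Gria4) in EC. In this contrast, which shares the Control libraries with the choice of the genes, 0.0532% of all genes passed in WT VSMC, and 0.00% each in the KO VSMC and the EC fit. With 0 genes passed in edgeR, 1711 genes in KO VSMC and 1143 in EC had an unadjusted p under 0.05, and DESeq2 called 11 and 0. Adding AII + NA to HG + FFA (ALL minus HG + FFA) left the members at -0.16 to 0.01 in WT VSMC, at -0.25 to 0.01 in KO VSMC and at -0.17 to 0.24 in EC. None passed, beside 0.0414% of all genes in WT VSMC and 0.00% in each of the other cell types (KO VSMC and EC), where 510 and 881 genes had an unadjusted p under 0.05 and DESeq2 called 0 in both. ALL minus Control gave 1.23, 1.67 and 0.96 for Gabra3, 0.94, 1.5 and 1.67 for Gria4 and -0.37, -0.76 and -0.61 for Abat in WT VSMC, KO VSMC and EC, without a test.

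The size of the changes with HG + FFA on top of AII + NA was compared directly between the cells. Between WT VSMC and KO VSMC the difference was -0.09 for Gabra3 (SE 0.260, FDR 0.947), -0.28 for Gria4 (SE 0.258, FDR 0.869) and 0.12 for Gria3 (SE 0.174, FDR 0.897). In this comparison 0.00545% of 18339 genes passed. Between EC and WT VSMC it was 0.58 for Gabra3, 0.41 for Gria4, -0.40 for Abat and -2.56 for Gria1, each with an FDR of 1, and 0.00516% of 19362 genes passed. Without EC sets 9, 11 and 13 the difference for Gabra3 was 1.78 (SE 0.673, FDR 0.547). No member passed in these comparisons of changes, which does not show that the changes were equal. For Abat the difference between WT VSMC and KO VSMC was 0.70 (SE 0.174, FDR 0.274). The log2 ratios of its single sets ran from -0.64 to -0.13 in WT VSMC (n = 4) and from -1.30 to -0.75 in KO VSMC (n = 3). How many of all genes separate in this way was not counted, so that these ranges cannot be read as a result about Abat.

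Without stressors, KO VSMC held less Gabra3 and Gria4 than WT VSMC in every library. The highest Control library of KO VSMC had 7.27 FPM of Gabra3, against 15.1 FPM in the lowest of WT VSMC, and 32.0 against 38.4 FPM of Gria4. Such a lack of overlap with lower levels in KO VSMC applied to 2.41% of the 17638 genes tested. In edgeR neither passed, with -2.73 for Gabra3 (SE 1.07, FDR 0.814) and -1.75 for Gria4 (SE 0.999, FDR 0.814). The differences of Abat (-0.15, SE 0.476), Gria3 (-0.39, SE 0.394) and Gria1 (-1.34, SE 1.85) did not pass either. In this comparison 0.00% of all genes passed, 993 had an unadjusted p under 0.05 and DESeq2 called 32. The targeted gene Egfr, with Control means of 382 FPM in WT VSMC and 10.8 FPM in KO VSMC, thus did not pass in edgeR either. Not passing in this test therefore does not show equal levels.

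The markers of other cells differed between these cultures as well. Under Control the fibroblast marker Pdgfra was at 313, 658, 684 and 869 FPM in WT VSMC sets 1 to 4 and at 424, 125, 130 and 126 FPM in KO VSMC sets 5 to 8. The Schwann cell marker Sox10 was at 10.9, 7.30, 0 and 7.77 FPM in WT VSMC and at 18.4, 0.634, 0.333 and 0 FPM in KO VSMC. Over all conditions the fibroblast markers summed to 6619 to 21600 FPM in WT VSMC and to 1900 to 12856 FPM in KO VSMC, and the Schwann and glial markers to 20.5 to 52.4 and 11.2 to 74.8 FPM. The part of these cells in the difference between WT VSMC and KO VSMC was not tested.

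EC differed from WT VSMC in both receptor families, where 15% of the 17638 genes passed. Gabra3 was lower in EC by -6.50 on the log2 scale (SE 0.917, FDR 0.000720) and Gria4 by -3.57 (SE 0.795, FDR 0.00884). Without EC sets 15 and 16 Gria4 differed by -4.35 (SE 0.821, FDR 0.00829) and Gabra3 by -6.27 (FDR 0.00429), and without EC sets 9, 11 and 13 by -3.28 and -6.47. For both genes each of the 9 Control libraries of EC lay below each of WT VSMC, which applied to 4.44% of all genes. Those of sets 17 and 18 came from the same animal but were taken as independent. Gria1 was higher by 4.26 (SE 1.61, FDR 0.0821) and Abat by 0.94 (SE 0.423, FDR 0.137) without passing, and Gria3 by 0.41 (SE 0.340, FDR 0.429). Without EC sets 9, 11 and 13, Gria1 (4.83, FDR 0.0109) and Abat (1.24, FDR 0.0260) were higher in EC, where the FDR ranged from 0.0109 to 0.193 for Gria1 and from 0.0260 to 0.316 for Abat over the alternatives. All VSMC carried the batch label B1 and all EC the label B2, so that cell type and batch cannot be told apart.

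The order of the 12 group means followed the cell type for Gabra3 and Gria4. For Gabra3 it ran from 66.9 ± 26.0 FPM (SD, n = 4) in WT VSMC under HG + FFA to 0.288 ± 0.315 FPM (SD, n = 9) in EC under Control. Neighbours in this order differed by more than the larger SD at only 2 of 11 places, between ALL and Control of WT VSMC (60.4 and 26.8 FPM) and between AII + NA of WT VSMC and HG + FFA of KO VSMC (21.5 and 12.6 FPM). For Gria4, with 92.8 ± 21.7 FPM in WT VSMC under ALL at the top and 3.98 ± 4.01 FPM in EC under Control at the bottom, this applied to 1 place, between HG + FFA and Control of WT VSMC (91.3 and 48.3 FPM). For Abat, where EC under Control led with 73 ± 41.1 FPM (SD, n = 9), no neighbours differed by more than their spread.

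Further genes of GABA and glutamate signalling were taken from lists of 99 genes, the 5 members included, of which the filter on low counts kept 49 for WT VSMC, 45 for KO VSMC and 46 for EC. With HG + FFA on top of AII + NA, 4 rose and none fell in WT VSMC, 2 rose and 1 fell in KO VSMC, and 3 rose and 1 fell in EC. Of all genes tested, 1.36%, 0.399% and 3.22% passed in this contrast in WT VSMC, KO VSMC and EC. The median over the tested list genes was 0.02 for WT VSMC and -0.04 for both KO VSMC and EC on the log2 scale, near the median of all genes (0.01, 0.00 and -0.02). The members account for 2 of the list genes that passed in WT VSMC, for all 3 in KO VSMC and for 2 in EC. They had been chosen by their response to HG + FFA, so that these counts depend on that choice. The count in WT VSMC was 2 without set 3 or 4, and that in KO VSMC was 0 without set 6 or 7.

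Gabre was the other GABA-A receptor subunit that rose. In WT VSMC sets 1 to 4 it was at 6.92, 15.2, 10.3 and 14.9 FPM under AII + NA and at 22.2, 26.0, 15.6 and 24.6 FPM under ALL (log2FC 0.95, SE 0.183, FDR 0.0179). All 4 sets were higher. In EC it lay between 0.982 and 7.61 FPM under AII + NA and between 1.87 and 21.6 FPM under ALL and rose in 9 of 9 sets (log2FC 0.94, SE 0.162, FDR 0.000451). In KO VSMC, at 9.17, 1.39, 4.07 and 10.6 FPM under AII + NA and 2.87, 9.33 and 14.5 FPM under ALL in sets 6 to 8, the difference did not pass (log2FC 0.79, FDR 0.0572).

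HG + FFA against Control gave the same direction for Gabre, which was not among the genes chosen by this contrast. It rose by 0.90 in WT VSMC (SE 0.179, FDR 0.0379), by 0.86 in KO VSMC (SE 0.148, FDR 0.0155) and by 0.75 in EC (SE 0.161, FDR 0.00525). It was the only one of the 94 further list genes to pass in both types of VSMC, beside 0.538% and 0.439% of all genes. In EC, where 3.53% of all genes passed, Slc1a6, a glutamate transporter (EAAT4), was the other one (log2FC 0.32, SE 0.0908, FDR 0.0379). The count of these genes was 0 in WT VSMC without set 2, 3 or 4 and in KO VSMC without set 6, 7 or 8, and 5 in KO VSMC without set 5. In EC it was 0 without both sets 15 and 16 and 1 without any 1 of sets 10, 11, 12, 14, 16, 17 and 18.

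Slc1a6 also rose in EC when HG + FFA was added to AII + NA (log2FC 0.42, SE 0.0908, FDR 0.00604). It lay between 12.2 and 132 FPM under AII + NA and between 23.5 and 193 FPM under ALL. The differences of Slc1a6 in VSMC were larger but did not pass, with 0.58 in WT VSMC (SE 0.168, FDR 0.106) and 0.56 in KO VSMC (SE 0.181, FDR 0.249). In WT VSMC Grm3, a metabotropic glutamate receptor, passed (FDR 0.0251) on few counts, with 0, 3, 0 and 2 counts under AII + NA in sets 1 to 4 and 3, 33, 2 and 11 counts under ALL.

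Without stressors, 9 of the 49 list genes tested differed between EC and WT VSMC, 8 of them lower in EC, beside 15% of all genes, so that the count is near the background. Besides Gabra3 and Gria4 these included the glutamate transporter Slc1a7 (log2FC -4.54, FDR 0.00434), the NMDA receptor subunits Grin3a (-3.10) and Grin2d (-2.35), Gabre (-1.92) and the kainate receptor subunit Grik5 (-0.94). The count was 3 without WT VSMC set 2, 5 without WT VSMC set 4 and 4 without EC sets 15 and 16, and it was 19 without EC sets 9, 11 and 13. No list gene passed between KO VSMC and WT VSMC, where 0.00% of all genes passed.

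**Figure D4:**
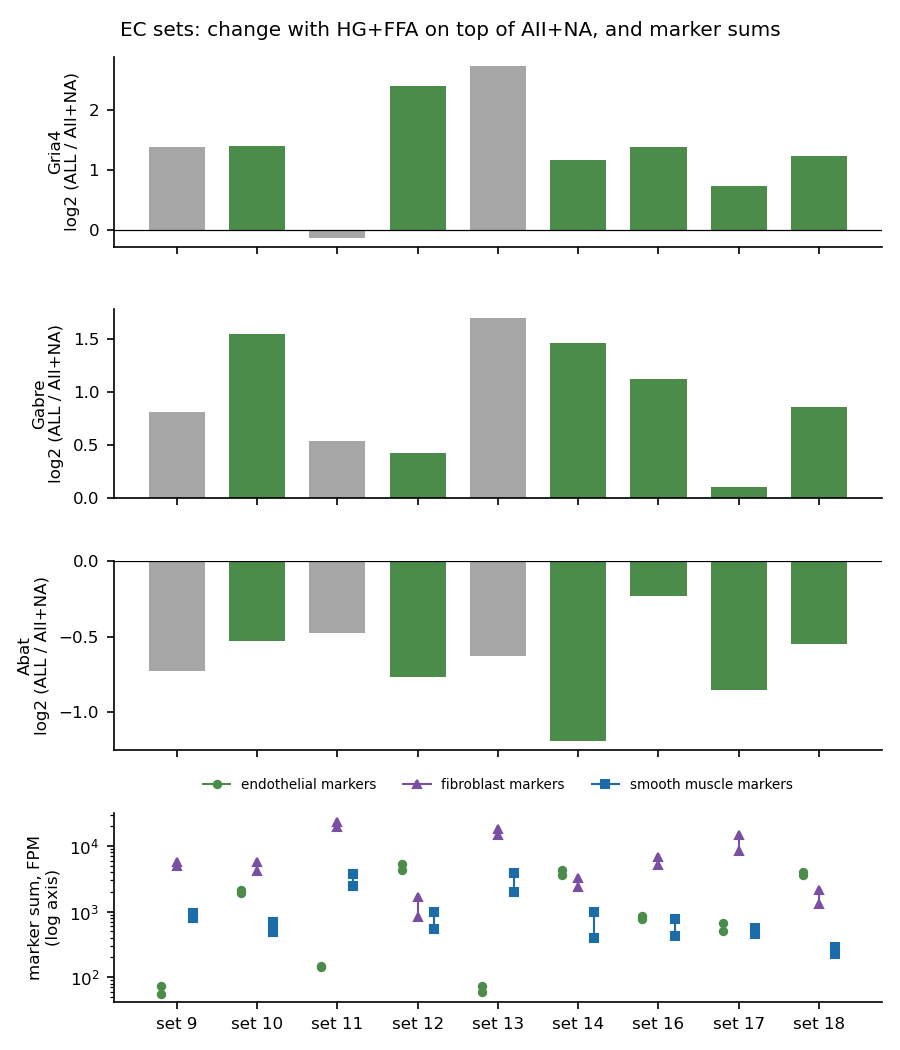
Log2 ratio of ALL to AII + NA (0.1 FPM added) in the 9 EC sets with both libraries for Gria4, Gabre and Abat. Below them is the summed FPM (log axis) of endothelial, fibroblast and smooth muscle markers, as the lowest and the highest library of each set over all its conditions. Grey bars are sets 9, 11 and 13, whose endothelial markers sum to 55.8 to 149 FPM. Gabre is higher and Abat is lower in all 9 sets, and Gria4 is higher in 8 of them.

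Markers of other cell types were mostly lower or little different when HG + FFA was added to AII + NA. In WT VSMC, where Gabra3, Gria4 and Gabre rose, the summed Schwann and glial markers had a median log2 ratio of -0.08 and the neuron markers one of -0.66, and both were lower in 4 of 4 sets. The fibroblast markers had -0.07 and the smooth muscle markers -0.20 in these cells, and the pericyte markers 0.30, higher in 3 of 4 sets. In KO VSMC the cardiomyocyte markers had -1.03, the pericyte markers -0.54, the fibroblast markers -0.43 and the smooth muscle markers -0.37, each lower in 3 of 3 sets. In EC the endothelial markers had 0.08, the fibroblast markers -0.30 and the Schwann and glial markers -0.48, the last lower in 8 of 9 sets. The adipocyte markers did not exceed a sum of 1.29 FPM in any library. The part of these shifts in the results was not tested.

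To describe which genes ran most like the members, each gene was correlated with them across libraries after the mean of its set was subtracted, so that the points share sets, treatments and depth. The Control and HG + FFA libraries, whose difference chose the members, are included. The likeness among members and to other genes that respond to HG + FFA thus depends on that choice. Over the 31 VSMC libraries and 11297 protein-coding genes, Gabra3 ran most like Lipe (hormone-sensitive lipase, r = 0.911) and Gria4 (r = 0.909) and least like Anxa7 (r = -0.902). Gabre came at rank 11 with r = 0.876. Abat ran most like Aldh6a1 (an enzyme of valine breakdown, r = 0.882), Ppp1r3c (a glycogen-targeting subunit of a phosphatase, r = 0.878) and Abca1 (the cholesterol exporter, r = 0.877). It ran least like Plin2, a lipid droplet coat protein (r = -0.908). Over the 38 EC libraries and 11331 genes, Gria4 ran most like Fabp4 (a fatty acid-binding protein, r = 0.877), Pdk4 (a kinase that inhibits pyruvate dehydrogenase, r = 0.864) and Slc43a3 (r = 0.856), and least like Egr1, an immediate early gene (r = -0.845). Abat stood near the bottom of that order with r = -0.759.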

How the data were processed

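Poly(A) RNA-Seq was performed by the authors on 16 libraries of WT VSMC, 15 of KO VSMC and 38 of EC. Per the labels and the study's methods, reads were aligned with HISAT2 2.1.0 to mm39 and assigned to exons with featureCounts, counting reads with several alignments (-M). The deposited values are raw counts per gene and library, without normalization or filter. The strand setting is not given in the sources used here, so that overlapping genes cannot be told apart.

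From these counts, FPM were calculated after TMM normalization over all 69 libraries, and FPKM with exon lengths of GENCODE vM39 (GRCm39). With edgeR 4.0.16 in R 4.3.3, genes kept by filterByExpr were fitted by a quasi-likelihood model per cell type with the condition and, as in the study's paired design, the set number. Comparisons between cell types used Control libraries without a block, or all libraries of both cell types with the set. They took as independent the animals that EC share with VSMC, and EC sets 17 and 18 of the same animal. The FDR is the Benjamini-Hochberg adjusted p-value over every gene of a fit. DESeq2 1.42.0 was an alternative. Log2 ratios of single sets used FPM + 0.1. The models were tested on simulated data. The sets come from the titles and mark cells of the same animal, and libraries of a set deviated together from the means of their conditions (mean r 0.818, 0.804 and 0.858 in WT VSMC, KO VSMC and EC, against -0.274, -0.286 and -0.093 between sets). No pair of libraries of a condition was a duplicate, since the smallest chi-square per gene was 41.6 over 207 pairs.

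The members and gene lists were chosen with earlier results of these data known. Named in the text are the 5 members, genes of the GABA and glutamate lists that passed (up to 6 besides the members for each contrast by FDR), the 3 most and the 1 least similar genes, and marker genes. Some genes that this rule names are not reported here. Gabrb1, Gabrb2, Gabbr1, Cacng7 and others of which only the level is given, and the single markers Pdgfra and Sox10, were chosen with their values in view. A permutation test of single members between KO VSMC and WT VSMC is not given, since it would need an adjustment over the members alone. The 2 alternatives that leave out several EC sets were added after the data were seen.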

Additional observations from a re-analysis of the deposited data

Results flagged for a closer look

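Of 55 groups of 4 to 10 libraries of the members, 3 held a library whose distance to its nearest neighbour took up more of the range than Dixon's 95% critical value allows, and chance gives about 1 such group in 20. Gabra3 in KO VSMC set 6 was at 0.521 FPM under HG + FFA, against 15.6 FPM in the next set. Abat in KO VSMC set 8 was at 13.2 FPM under HG + FFA, against 26.2 FPM in the next set. Gria1 in WT VSMC set 3 had no count under AII + NA, a level of 0 FPM, against 0.0373 FPM in the next set, all of which lie under the floor of 3 counts.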

How the results depend on the processing

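Of 121 repeats of the changes of Gabra3, Gria4 and Abat that passed, 107 stayed past the threshold. Without a replicate block for the set, the members no longer passed with HG + FFA on top of AII + NA, with 1.48 and 1.07 for Gabra3 and Gria4 in WT VSMC, 1.44, 1.15 and -1.04 for Gabra3, Gria4 and Abat in KO VSMC, and 1.54 and -0.59 for Gria4 and Abat in EC. Leaving out single sets in KO VSMC gave 1.41 to 1.88 for Gabra3, 1.21 to 1.63 for Gria4 and -1.08 to -0.83 for Abat. The cause was not tested, but every fit without set 6, 7 or 8 had only 2 sets with an ALL library.

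Counts of list genes that passed moved as follows. With HG + FFA on top of AII + NA, no filter on low counts gave 7 in WT VSMC and 5 in KO VSMC, no replicate block 0 in all cells, only the 2 conditions compared 5 in KO VSMC, the animal as block 2 in EC, and single sets left out 2 to 3 in WT VSMC and 0 to 4 in KO VSMC. With HG + FFA against Control, members left out, no filter gave 3 in WT VSMC and 2 in KO VSMC, no replicate block 0 in all cells, only the 2 conditions 0 in KO VSMC and 1 in EC, complete sets 5 in KO VSMC, the study's criteria 1 in EC, the animal as block 0 in EC, and without EC sets 15 and 16 it was 0. Single sets left out gave 0 to 1 in WT VSMC, 0 to 5 in KO VSMC and 1 to 2 in EC. No filter gave 1 for AII + NA alone and 1 for ALL minus HG + FFA in WT VSMC, as did DESeq2 for the latter, and 1 for WT VSMC minus KO VSMC. EC minus WT VSMC had 4 without EC sets 15 and 16, 19 without EC sets 9, 11 and 13, and 3 to 9 with single sets left out.

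Signs turned only in values that did not pass. With AII + NA alone these were, without a replicate block in EC, Gabra3 (0.19) and Abat (-0.010), with the animal as block Gria1 (0.039), and with single sets left out Abat in WT VSMC (-0.16 to 0.0059), Gria4 in KO VSMC (-0.016 to 0.27) and, in EC, Gabra3 (-1.75 to 0.14), Gria1 (-0.44 to 0.19) and Gria4 (-0.072 to 0.36). For ALL minus HG + FFA in WT VSMC they were Gria4 without a filter (-0.00021) and with sets left out (-0.062 to 0.094), and Abat (-0.19 to 0.016). In KO VSMC they were Gabra3 with DESeq2 (0.0044), with only the 2 conditions (0.089), with complete sets (0.15) and with sets left out (-0.22 to 0.15), Gria3 with only the 2 conditions (-0.077), with complete sets (-0.073) and with sets left out (-0.081 to 0.12), and Gria4 (-0.13 to 0.075). In EC they were, without a replicate block, Gabra3 (-0.061), Abat (-0.044) and Gria1 (0.24), Gria1 with complete sets (0.20), and with sets left out Abat (-0.014 to 0.056) and Gria4 (-0.14 to 0.019). Without a replicate block, Gria3 in KO VSMC was 0.022 with HG + FFA on top of AII + NA, and Gabra3 in the difference between WT VSMC and KO VSMC was 0.041. With sets left out the latter was -0.38 to 0.056, and Abat in KO VSMC minus WT VSMC was -0.35 to 0.15. The cause of these turns was not tested. Low counts limited Gria1, Grm3 and, in EC, Gabra3, each with libraries that had no count.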
